A study of Drosophila melanogaster with 15 samples.

Results

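The glutathione S-transferase genes of Drosophila melanogaster were described across control larvae and 4 neuronal knockdowns of the respiratory chain. The members were all probe sets whose annotated gene symbol starts with Gst. They were 36 of the 18769 probe sets that are not array controls, and they stood for 34 of the 11982 genes that a probe set names alone. Of these genes 11 belong to the delta class (GstD), 13 to epsilon (GstE), 3 to omega (GstO), 1 to sigma (GstS), 4 to theta (GstT) and 2 to zeta (GstZ). GstE9 and GstO2 had 2 probe sets each. GstE8 was not matched to any probe set and is not described here.

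Messenger RNA was measured on Affymetrix arrays in the whole central nervous system of wandering larvae of the last instar, with 3 arrays in each of 5 groups. Every group carried nSyb-Gal4, a driver active in neurons. Control larvae had the driver over a chromosome without an RNAi construct (nsybGal4/+). The ND-75 RNAi group carried line 33910 against a subunit of complex I, and the UQCR-14 RNAi group carried line 109542 against a subunit of complex III. The COX5B RNAi group carried line 105769 against a subunit of complex IV, and the ATPsynCf6 RNAi group carried line 107826 against a subunit of the ATP synthase (complex V). Each sample pooled the nervous systems of 15 larvae grown at 25 °C. The amplification started from 10 ng of RNA. Each target had 1 line and no group carried a construct against an unrelated gene, so the knockdown, the line and the presence of a construct cannot be told apart. The labels give RNA prepared in triplicate for each genotype, but not whether larvae of different crosses were used. The p-values measure the spread between these samples, which may be technical. The RNA came from neurons, glia and any attached tissue together, so fewer cells of a type and less RNA per cell cannot be told apart.

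Glutathione S-transferases join the tripeptide glutathione to reactive or foreign molecules, which makes these molecules less reactive and easier to export. The delta and epsilon classes are expanded in insects and are best known from insecticide resistance and from the handling of lipid peroxidation products. In flies several delta genes are induced by oxidative stress through the transcription factor CncC, the product of cnc, which the protein Keap1 holds in check. The omega, sigma, theta and zeta classes are shared with vertebrates. Some of these enzymes have duties in metabolism, such as tyrosine breakdown in the zeta class.

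The values are MAS5 signals, brightness on a linear scale. On 5 arrays the signals were distributed unlike those of the other 10. Their upper quartiles were 170 to 485, against 566 to 653 in the rest. They were array 3 of control and of the ND-75, UQCR-14 and COX5B RNAi groups, and COX5B RNAi 1. Actin 3' signal divided by actin 5' signal, a ratio which rises with RNA degradation, was 70.1 on COX5B RNAi 1, 37.4 on ND-75 RNAi 2, 20.1 on ND-75 RNAi 3 and 2.94 to 5.03 elsewhere. Results are therefore given for a limma fit of all 15 arrays and beside it for the same fit with array weights, which limma estimates from how far each array departs from its group, and for the 10 arrays alone. Changes are differences of log2(signal + 16) against control unless another pair is named, and they understate the fold of dim genes. In the last, COX5B RNAi is left with 1 array, whose spread was taken to be that of the rest. The weights were 1.01 to 5.21 for the 10 arrays and 0.0266 to 0.297 for the 5, so the last 2 fits rest largely on the same arrays. In all 3 fits each targeted gene missed the threshold in the group meant to deplete it, with changes of -0.72 to 0.15 on the log2 scale when all 15 arrays were fitted. A lower transcript of the targets was thus not shown, and the groups are named by their labels. Of the marker lists, 5 of 6 matched neuronal and 6 of 7 matched glial genes exceeded the array's median on all 15 arrays. Among the 10 arrays, glial marker sums spanned 20872 to 20969 for control. Those of ND-75 RNAi (18677 to 18870) and COX5B RNAi (17437) were lower. ATPsynCf6 RNAi sums (21580 to 23354) were higher, and UQCR-14 RNAi (18344 to 21277) overlapped control. Over 15 arrays all overlapped control. Neuroblast marker sums of ATPsynCf6 RNAi, 4777 to 5218 over 15 arrays, exceeded control (2883 to 4700), while other groups overlapped it. How far cell composition enters the Gst values was not tested.

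GstD2, a delta-class gene, stood at 2.96 to 4.27 times control in the 4 RNAi groups over all 15 arrays, taken from means of log2(signal + 16), a difference that did not pass the test there and passed with array weights and over the 10 arrays. Its signals were 63.7, 72.0 and 28.6 on the control arrays 1, 2 and 3. They were 290, 305 and 181 in ND-75 RNAi, 230, 295 and 302 in UQCR-14 RNAi, 62.1, 335 and 281 in COX5B RNAi, and 283, 218 and 304 in ATPsynCf6 RNAi. Every RNAi array except COX5B RNAi 1 was above every control array. That exception is the array with the highest actin ratio, and it lay between the control values. On the log2(signal + 16) scale the group means were 6.09 ± 0.53 in control, 7.65 ± 1.19 in COX5B RNAi, 8.07 ± 0.39 in ND-75 RNAi, 8.14 ± 0.24 in ATPsynCf6 RNAi and 8.18 ± 0.20 in UQCR-14 RNAi (SD, n = 3 each). The means of ND-75, ATPsynCf6 and UQCR-14 RNAi differed by less than the SD of any of these 3 groups. The COX5B RNAi mean was lower, by less than its own SD of 1.19 but by more than the SDs of the other 3.

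**Figure D1:**
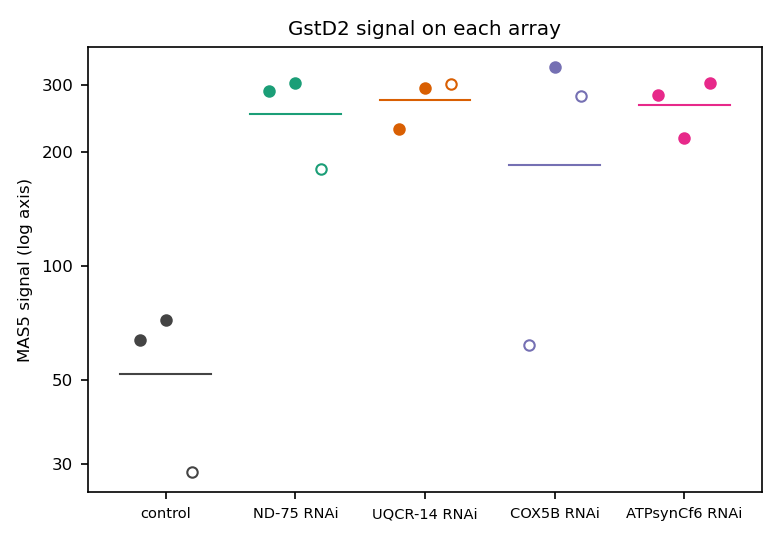
GstD2 signal (MAS5, log axis) on each of the 15 arrays by group. Each point is an array, open points are the 5 arrays that stood apart, and lines are group means taken on the log2(signal + 16) scale. The control arrays lie at 28.6 to 72.0 and all RNAi arrays but COX5B RNAi 1 (62.1) lie at 181 or above.

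Over all 15 arrays these differences did not pass limma's test after Benjamini-Hochberg adjustment over 10340 probe sets. The change of GstD2 was 1.98 in ND-75 RNAi (95% interval 0.89 to 3.07, adjusted p = 0.835) and 2.09 in UQCR-14 RNAi (1.01 to 3.18, adjusted p = 0.643). It was 1.57 in COX5B RNAi (0.48 to 2.66, adjusted p = 0.541) and 2.05 in ATPsynCf6 RNAi (0.97 to 3.14, adjusted p = 0.521), each with an SE of 0.51. The mean of the 4 RNAi groups stood 1.92 above control (SE 0.40, adjusted p = 0.227). None of the 4 intervals, which are not adjusted for the number of probe sets, held 0. Without COX5B RNAi 1 the gene passed in ND-75 RNAi (adjusted p = 0.0281), UQCR-14 RNAi (0.0212) and ATPsynCf6 RNAi (0.0256), and reached 0.0716 in COX5B RNAi.

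With array weights and over the 10 arrays GstD2 rose in all 4 groups. With weights the rises were 2.01 in COX5B RNAi (limma adjusted p = 0.00943), 1.83 in UQCR-14 RNAi (2.44e-05), 1.89 in ND-75 RNAi (1.31e-05) and 1.79 in ATPsynCf6 RNAi (4.63e-07). Over the 10 arrays they were 2.07 (0.00162), 1.72 (0.00078), 1.91 (0.000615) and 1.75 (0.000325) in the same order. The 10-array fit was repeated without each of the 9 arrays outside COX5B RNAi. The call held each time in ND-75, UQCR-14 and ATPsynCf6 RNAi, with changes of 1.56 to 1.98. In COX5B RNAi the change was 2.00 to 2.14. Its 1 array was never left out, so how far the COX5B RNAi value depends on that array was not tested there. The weighted calls depended more on single arrays. In ND-75 RNAi the call ended without control 1 (adjusted p = 0.109), control 2 (0.0571), ND-75 RNAi 1 (0.243) or ND-75 RNAi 2 (0.326). In UQCR-14 RNAi it ended without control 1 (0.161), control 2 (0.0787), UQCR-14 RNAi 1 (0.841) or UQCR-14 RNAi 2 (0.773). In ATPsynCf6 RNAi it ended without control 1 (0.113). In COX5B RNAi it ended without control 1 (0.34), control 2 (0.419) or any of the 3 COX5B RNAi arrays (0.149, 0.995 and 0.891 for arrays 1, 2 and 3), and without COX5B RNAi 2 the change was 0.90.

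A difference in GstD2 among the 4 knockdowns was not detected. The moderated F test gave limma adjusted p-values of 0.906 (15 arrays), 0.993 (array weights) and 0.68 (10 arrays). In the 10-array fit the interval of ND-75 RNAi minus ATPsynCf6 RNAi ran from -0.26 to 0.57, that of ND-75 RNAi minus UQCR-14 RNAi from -0.27 to 0.64, and that of UQCR-14 RNAi minus ATPsynCf6 RNAi from -0.44 to 0.39. Intervals with the 1 COX5B array were wider, from -0.90 to 0.22 for UQCR-14 RNAi minus COX5B RNAi and from -0.21 to 0.84 for COX5B RNAi minus ATPsynCf6 RNAi. The 4 comparisons share their control arrays, so they are not independent.

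The other GstD genes, most of which lie beside GstD2 on chromosome arm 3R, did not pass the test in any of the 3 fits. RefSeq places the cluster in the order GstD10, GstD9, GstD1, a long non-coding RNA gene, GstD2, and then GstD3 to GstD8, with GstD11 beyond another gene. Whether the probe set of a GstD gene also reads a close relative was not tested. GstD3, the next gene after GstD2, had lower group means than control in all 4 knockdowns, in contrast to its neighbour. Its signals were 785, 808 and 2268 in control, 588, 299 and 1140 in ND-75 RNAi, 531, 523 and 2140 in UQCR-14 RNAi, 81.8, 619 and 1763 in COX5B RNAi, and 720, 583 and 424 in ATPsynCf6 RNAi. Only the ATPsynCf6 RNAi arrays lay wholly below control, and its change there was -0.99 (SE 0.88, limma adjusted p = 1).

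GstD1, the delta enzyme best known for induction by oxidative stress and for DDT resistance, had the brightest probe set of its class. Its control signals of 4591, 4648 and 11421 overlapped those of every RNAi group. These were 5354, 4248 and 11390 in ND-75 RNAi, 5453, 5811 and 17935 in UQCR-14 RNAi, 775, 4825 and 11021 in COX5B RNAi, and 7116, 6193 and 6795 in ATPsynCf6 RNAi. The high value of each group other than ATPsynCf6 RNAi came from its array 3. Without the arrays that stood apart, control had 4591 and 4648. UQCR-14 RNAi (5453 and 5811), ATPsynCf6 RNAi (6193 to 7116) and COX5B RNAi (4825) then lay above control. ND-75 RNAi, at 4248 and 5354, lay on both sides of it. With array weights the ATPsynCf6 RNAi change was 0.50 (interval 0.14 to 0.86, limma adjusted p = 0.0908) and missed the threshold. Quantile normalization with array weights called this change, where 7.4% of all probe sets were called. GstD4, GstD6, GstD7, GstD8 and GstD10 were too dim to be tested, and GstD5, GstD9 and GstD11 passed in none of the 3 fits. Without the filter on dim probe sets, the median change of the 11 delta genes was -0.23 in ATPsynCf6 RNAi, -0.18 in ND-75 RNAi, -0.07 in COX5B RNAi and 0.00 in UQCR-14 RNAi.

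**Figure D2:**
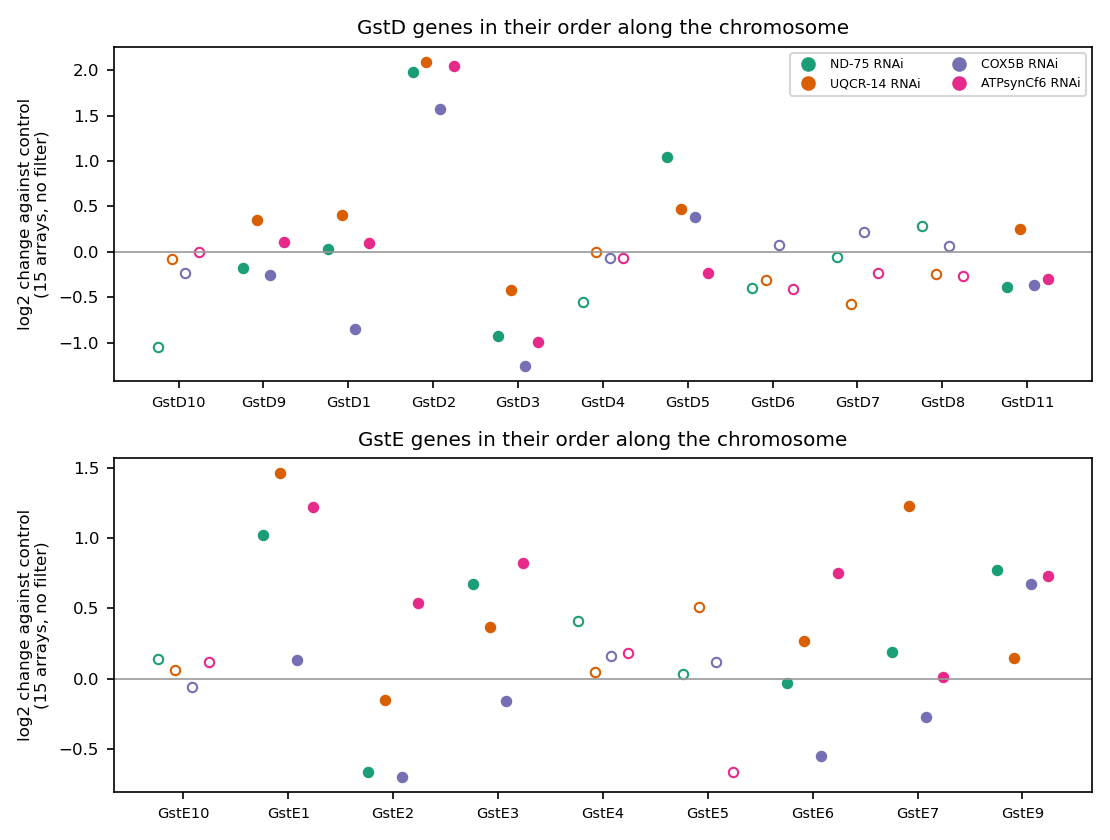
Log2 change against control over 15 arrays, without the filter on dim probe sets, for the GstD genes and for the clustered GstE genes in their order along the chromosome (evenly spaced, brightest probe set per gene). Filled points passed the filter on dim probe sets and open points did not. GstD2 lies at 1.57 to 2.09 in the 4 RNAi groups while GstD3 beside it lies at -1.26 to -0.42.

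In the epsilon class GstE1 passed the test in the weighted and 10-array fits, in UQCR-14 and ATPsynCf6 RNAi. GstE10 and GstE1 to GstE9 form a cluster on arm 2R, and epsilon enzymes take part in insecticide detoxification. GstE1 had signals of 243, 557 and 1191 in control, 871, 737 and 2217 in ND-75 RNAi, 932, 945 and 4094 in UQCR-14 RNAi, 92.3, 750 and 2823 in COX5B RNAi, and 1373, 1295 and 1235 in ATPsynCf6 RNAi. The ATPsynCf6 RNAi arrays lay above all control arrays, and the other groups overlapped control. Over 15 arrays its changes were 1.02, 1.46, 0.13 and 1.22 in the order ND-75, UQCR-14, COX5B and ATPsynCf6 RNAi (SE 0.96), and none passed the test.

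With array weights GstE1 rose by 1.44 in UQCR-14 RNAi (limma adjusted p = 0.0195) and by 1.86 in ATPsynCf6 RNAi (0.000139). Over the 10 arrays it rose by 1.31 (0.016) and 1.77 (0.00159). In ND-75 RNAi it stood at 1.30 (0.0608) and 1.09 (0.0639) in these fits, and in COX5B RNAi at 1.45 (0.692) and 0.99 (0.18). Its control signals of 243 and 557 on arrays 1 and 2 were far apart, and its size moved with them. In the 10-array fit the UQCR-14 value was 0.74 without control 1 (0.0561) and 1.88 at the other extreme, and the call also ended without UQCR-14 RNAi 1 (0.111) or 2 (0.0928). The ATPsynCf6 call held in all 9 such fits, at 1.20 to 2.35. With weights both calls ended without control 1 (0.896 and 0.871) or control 2 (0.696 and 0.797), and the UQCR-14 call also without UQCR-14 RNAi 1 (0.841) or 2 (0.773).

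GstE2 signals lay on opposite sides of control in the complex I and the ATP synthase groups. Its signals were 655, 977 and 782 in control, 652, 477 and 392 in ND-75 RNAi, 604, 798 and 760 in UQCR-14 RNAi, 136, 860 and 913 in COX5B RNAi, and 1251, 1105 and 1141 in ATPsynCf6 RNAi. All ND-75 RNAi arrays were below and all ATPsynCf6 RNAi arrays above control, though the highest ND-75 value of 652 was close to the lowest control value of 655. The lower ND-75 values of 477 and 392 came from the arrays with actin ratios of 37.4 and 20.1. Against control the ND-75 RNAi change was -0.66 over 15 arrays (SE 0.57), and it passed in none of the 3 fits. ND-75 RNAi minus ATPsynCf6 RNAi was -1.20 over 15 arrays (SE 0.57, limma adjusted p = 1). It was -0.98 with array weights (SE 0.19, 0.00474) and -1.04 over the 10 arrays (SE 0.18, 0.00774). The latter became -0.82 (0.0682) without ND-75 RNAi 2, the array with an actin ratio of 37.4. The weighted call ended without ND-75 RNAi 1 (0.321) or 2 (0.734). Whether RNA degradation plays a part in these values was not tested.

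In ATPsynCf6 RNAi, 4 more epsilon genes passed the test with array weights alone. There GstE2 rose by 0.59 (adjusted p = 0.0216), GstE3 by 0.82 (0.00739), GstE6 by 0.97 (0.00491) and GstE9 by 0.69 (0.013, at the brighter of its probe sets). GstE3 had 255, 164 and 162 in ATPsynCf6 RNAi against 84.5, 123 and 97.9 in control, and GstE6 had 227, 190 and 215 against 74.9, 147 and 146. For GstE9 the values were 115, 111 and 94.1 against 52.5, 73.4 and 49.7. These 4 genes had all ATPsynCf6 RNAi arrays above all control arrays. In the 10-array fit they stood at 0.53 to 0.89 and missed the threshold (limma adjusted p = 0.116 to 0.21). All 4 weighted calls ended without control 1 (0.871 each) or control 2 (0.797 each). That of GstE2 also ended without ATPsynCf6 RNAi 1 (0.0904), 2 (0.0504) or 3 (0.0642), and that of GstE9 without ATPsynCf6 RNAi 1 (0.056) or 2 (0.0508). The dimmer probe set of GstE9 stood at 0.56 with weights (0.179).

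GstE12 had the brightest epsilon probe set, with 2954, 3449 and 4562 in control and 194 on COX5B RNAi 1. Every group overlapped control. ND-75 RNAi had 2669, 1844 and 3173, and ATPsynCf6 RNAi had 4018, 3370 and 3398. Their difference was -0.69 over the 10 arrays (SE 0.17, limma adjusted p = 0.0376), -0.55 with weights (0.14) and -0.52 over 15 arrays (1). The call ended without ND-75 RNAi 2 (0.279, a change of -0.42) or any of the 3 ATPsynCf6 RNAi arrays (0.129, 0.0915 and 0.0799). GstE13, the second brightest, had signals of 1424 to 2631 on the 10 arrays, 128 on COX5B RNAi 1 and up to 9904 on UQCR-14 RNAi 3, and passed in none of the 3 fits.

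GstE14, chosen here after its values were seen, is known as noppera-bo and acts in ecdysteroid synthesis in the ring gland, an endocrine organ attached to the larval brain. Its signals were 31.0, 97.7 and 323 in control, 23.3, 28.1 and 83.8 in ND-75 RNAi, 47.1, 1.89 and 53.5 in UQCR-14 RNAi, 8.83, 26.6 and 206 in COX5B RNAi, and 51.6, 6.59 and 1.22 in ATPsynCf6 RNAi. Every RNAi group overlapped control, and over 15 arrays its change was the farthest from 0 of the epsilon class in ATPsynCf6 RNAi, at -2.04, but did not pass the test (SE 0.86, limma adjusted p = 1). It also missed the threshold there with weights (-1.29, 0.109) and over the 10 arrays (-1.30, 0.339). The summed signal of the 4 matched ring gland markers, with 1 above the median on all 15 arrays, was 692 to 2936 in control, 444 to 2328 in ND-75 RNAi, 386 to 3089 in UQCR-14 RNAi, 157 to 3774 in COX5B RNAi and 558 to 946 in ATPsynCf6 RNAi. All groups overlapped control in this sum. Of its single markers in control and ATPsynCf6 RNAi, sad had 136, 357 and 1329 against 114, 41.8 and 22.8, and nvd had 12.3, 34.8 and 74.6 against 13.3, 9.59 and 7.70. The marker dib had 41.7, 94.3 and 139 against 64.5, 42.0 and 82.2, and Akh had 503, 526 and 1394 against 754, 465 and 504. Of these 4 markers, sad had its ATPsynCf6 RNAi arrays wholly below control. The part of ring gland tissue in the GstE14 values was not tested.

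In the omega class, whose enzymes reduce dehydroascorbate, GstO3 was the member that passed in the weighted and 10-array fits. It lies on arm 3L beside sepia (se), an omega-type gene of eye pigment synthesis, GstO2 and GstO1. Its signals were 1039, 1069 and 1669 in control, 1857, 1921 and 2535 in ND-75 RNAi, 1429, 1449 and 3840 in UQCR-14 RNAi, 62.8, 1545 and 2744 in COX5B RNAi, and 1657, 1542 and 1518 in ATPsynCf6 RNAi. All ND-75 RNAi arrays were above all control arrays, and the other groups overlapped control through control 3 or COX5B RNAi 1. On the 10 arrays, the control range of 1039 to 1069 lay below every RNAi array.

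Over 15 arrays the GstO3 values were -0.84 in COX5B RNAi, 0.35 in ATPsynCf6 RNAi, 0.69 in UQCR-14 RNAi and 0.75 in ND-75 RNAi (SE 0.93), and none passed the test. In ND-75 RNAi it rose by 0.84 with weights (limma adjusted p = 0.0227) and by 0.83 over the 10 arrays (0.00184). The 10-array call held in all 9 fits that left out an array, and the weighted call ended without control 1 (0.839), control 2 (0.791), ND-75 RNAi 1 (0.567) or 2 (0.811). In ATPsynCf6 RNAi it rose by 0.55 with weights (0.0204) and by 0.57 over the 10 arrays (0.00865). The latter call ended without control 1 (0.143) or control 2 (0.0588). The weighted one ended without control 1 (0.91), control 2 (0.854) or ATPsynCf6 RNAi 1 (0.076), 2 (0.0594) or 3 (0.0544). In UQCR-14 RNAi it rose by 0.44 over the 10 arrays (0.0398), a call that held in 2 of 9 such fits and ended without control 1 (0.173) or 2 (0.179), UQCR-14 RNAi 1 (0.189) or 2 (0.17), or any ATPsynCf6 RNAi array (0.0514 to 0.0667). In COX5B RNAi it stood at 0.54 (0.074) over the 10 arrays.

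GstO2 had 3571, 3469 and 3635 in control at its brighter probe set and 504, 3334 and 3204 in COX5B RNAi, wholly below control. Over the 10 arrays this probe set ran from 3185 to 3783. The dimmer GstO2 probe set had 1190, 1427 and 1219 in control, 940, 1002 and 1107 in UQCR-14 RNAi and 92.0, 1056 and 996 in COX5B RNAi, so that both groups lay wholly below control. Neither probe set passed in the 15-array, weighted or 10-array fit. GstO1 had 241, 273 and 231 in ATPsynCf6 RNAi against 159, 148 and 300 in control, and rose there with array weights by 0.61 (limma adjusted p = 0.0421). That call ended without control 1 (0.934) or 2 (0.923), ND-75 RNAi 1 or 2, UQCR-14 RNAi 3, COX5B RNAi 1 or any ATPsynCf6 RNAi array (0.0657 to 0.188), and over the 10 arrays its adjusted p was 0.221.

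GstS1, the only sigma-class member, passed in none of the 3 fits. The enzyme is abundant in flight muscle and conjugates lipid peroxidation products. Its signals were 4504, 4147 and 5633 in control and 3078 to 8135 over all 15 arrays, the highest of which was COX5B RNAi 1. Among the theta genes, GstT1 had 1052, 1298 and 2356 in control and 893 to 1400 over the 10 arrays. GstT3 had 859, 682 and 1606 in control, 927, 1115 and 1309 in ND-75 RNAi, 701, 639 and 1448 in UQCR-14 RNAi, 126, 869 and 1030 in COX5B RNAi, and 649, 618 and 573 in ATPsynCf6 RNAi. The ATPsynCf6 RNAi arrays lay below all control arrays and below all ND-75 RNAi arrays. ND-75 RNAi minus ATPsynCf6 RNAi was 0.84 for GstT3 over 15 arrays (SE 0.64, limma adjusted p = 1), 0.69 with weights (0.0278) and 0.72 over the 10 arrays (0.0108). The 10-array call ended without ND-75 RNAi 2 (0.0863). The weighted call ended without ND-75 RNAi 1 (0.593), ND-75 RNAi 2 (0.844), ATPsynCf6 RNAi 2 (0.0707) or 3 (0.0916).

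The zeta gene GstZ2 was lower than control on every RNAi array. Zeta enzymes act as maleylacetoacetate isomerases in the breakdown of tyrosine. The signals of GstZ2 were 1758, 1525 and 1408 in control, 1259, 885 and 721 in ND-75 RNAi, 885, 1060 and 1113 in UQCR-14 RNAi, 46.3, 1395 and 1129 in COX5B RNAi, and 1039, 1242 and 1218 in ATPsynCf6 RNAi. The gap was narrow in COX5B RNAi, where 1395 stood next to the lowest control value of 1408. Over 15 arrays the changes were -0.73, -0.61, -1.76 and -0.42 in the order ND-75, UQCR-14, COX5B and ATPsynCf6 RNAi (SE 0.83), and none passed.

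With array weights GstZ2 fell by 0.72 in UQCR-14 RNAi (limma adjusted p = 0.0407) and by 0.50 in ATPsynCf6 RNAi (0.0485). In the 10-array fit it fell by 0.75 in UQCR-14 RNAi (0.0279), while ND-75 RNAi stood at -0.63 (0.105) and ATPsynCf6 RNAi at -0.49 (0.132). The 10-array call ended without control 1 (0.158), control 2 (0.0871), UQCR-14 RNAi 1 (0.216) or UQCR-14 RNAi 2 (0.0701). The weighted call in UQCR-14 RNAi held in 7 of the 15 fits that left out 1 array. It ended without any control array, UQCR-14 RNAi 1 or 2, COX5B RNAi 2 or 3, or ND-75 RNAi 3 (0.0699 to 0.841). That in ATPsynCf6 RNAi held in 5, and ended without any control, UQCR-14 RNAi or ATPsynCf6 RNAi array or ND-75 RNAi 2 (0.0568 to 0.887). GstZ1, its neighbour on arm 3R, had 171, 210 and 217 in control, 232, 374 and 354 in ND-75 RNAi, 195, 174 and 231 in UQCR-14 RNAi, 58.0, 156 and 145 in COX5B RNAi, and 215, 179 and 189 in ATPsynCf6 RNAi. It lay above control in ND-75 RNAi and below it in COX5B RNAi, and passed in none of the 3 fits.

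**Figure D3:**
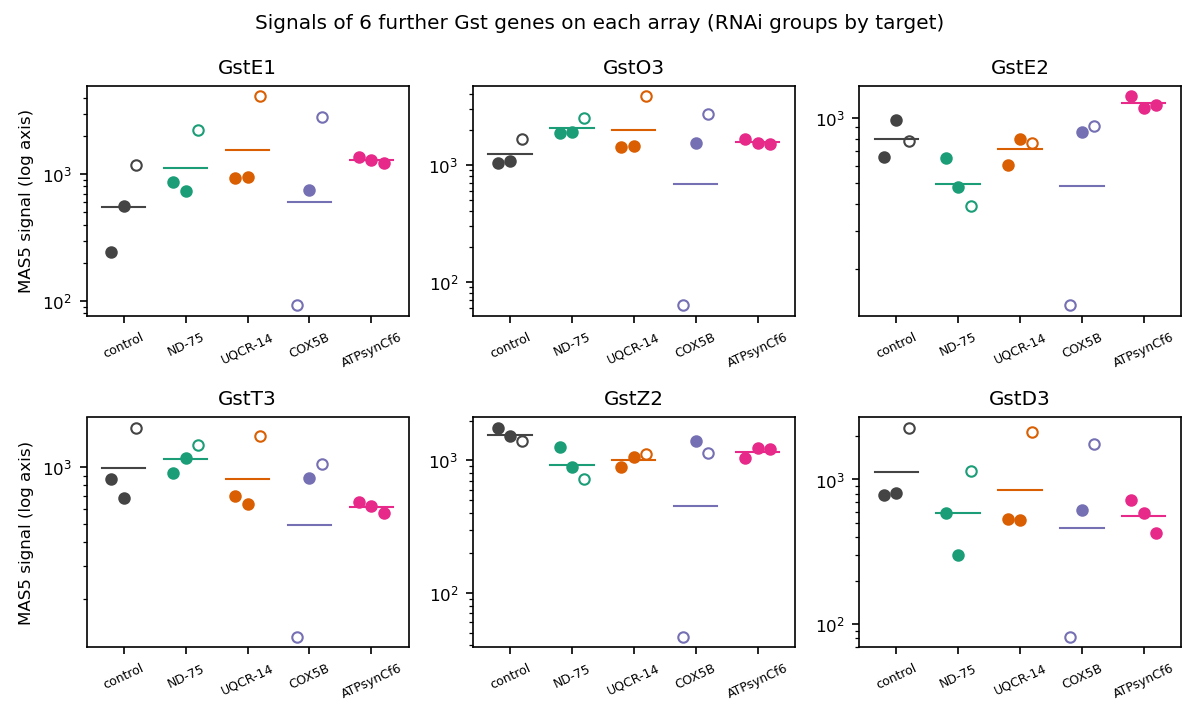
MAS5 signals (log axes with a different range in each panel) of GstE1, GstO3, GstE2, GstT3, GstZ2 and GstD3 on each array, by group. Points are arrays, open where the array was 1 of the 5 that stood apart, and lines are group means on the log2(signal + 16) scale. COX5B RNAi 1 is the lowest array in every panel, and GstZ2 lies below the lowest control value of 1408 on all RNAi arrays.

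Counted over the family, 28 of the 36 probe sets passed the filter on dim signals. Of these, 26 exceeded the array's median on at least 1 control array, while GstD5 and the dimmer GstE9 probe set did so on RNAi arrays only. Over 15 arrays 0 of the 28 were called in any contrast. Of all 10340 probe sets, 0% were called in COX5B RNAi, 0.0193% in ATPsynCf6 RNAi, 0.0484% in UQCR-14 RNAi, 0.0677% in ND-75 RNAi and 0.0484% for the mean of the 4 groups. At an unadjusted p under 0.05 there were 1, 2, 1, 2 and 1 members in that order, or 3.57%, 7.14%, 3.57%, 7.14% and 3.57% of the 28. The shares of all probe sets at that level were 5.59%, 1.3%, 2.21%, 1.5% and 1.7%. The median change of all 36 members without the filter was -0.04, 0.04, -0.43 and -0.01 in ND-75, UQCR-14, COX5B and ATPsynCf6 RNAi. Over all 18769 probe sets it was 0.05, 0.03, -0.04 and 0.03. The COX5B RNAi value depended on the arrays: over the 28 tested members and all 10340 tested probe sets the medians there were -0.71 and -0.32 with 15 arrays, 0.14 and -0.01 with array weights, and -0.00 and 0.02 over the 10 arrays.

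With array weights 2 members were called in ND-75 RNAi (GstD2 and GstO3), where 1.57% of all probe sets were called. In UQCR-14 RNAi 3 were called (GstD2, GstE1 and GstZ2) against 4.47% of all, and in COX5B RNAi 1 (GstD2) against 0.203%. ATPsynCf6 RNAi had 9 called members against 6.91% of all, 8 of which rose (GstD2, GstE1, GstE2, GstE3, GstE6, GstE9, GstO1 and GstO3) while GstZ2 fell. For the mean of the 4 groups 4 were called (GstD2, GstE1, GstO3 and GstZ2), against 3.99%. Leaving out each array in turn, these 4 calls for the mean held in 13, 11, 9 and 5 of 15 fits, and all 4 ended without control 1 (0.163, 0.909, 0.894 and 0.889) or control 2 (0.0752, 0.842, 0.851 and 0.842). Those of GstE1, GstO3 and GstZ2 also ended without COX5B RNAi 2 (0.355, 0.859 and 0.215) or 3 (0.419, 0.943 and 0.253), those of GstO3 and GstZ2 without UQCR-14 RNAi 1 (0.1 and 0.357) or 2 (0.0864 and 0.285), and that of GstZ2 without control 3, ND-75 RNAi 2 or ATPsynCf6 RNAi 1 or 3 (0.0507 to 0.0634).

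Over the 10 arrays 2 members were called in ND-75 RNAi (GstD2 and GstO3; 1.69% of all probe sets), and 4 in UQCR-14 RNAi (GstD2, GstE1, GstO3 and GstZ2; 4.59% of all). In COX5B RNAi 1 was called (GstD2; 1.24% of all), in ATPsynCf6 RNAi 3 (GstD2, GstE1 and GstO3; 3.22% of all), and for the mean of the 4 groups GstD2, GstE1 and GstO3 (3.12% of all), of which GstO3 was lost without control 1 (0.0754). These counts moved with single arrays and so did the shares of all probe sets. With each of 9 arrays left out, the count ran from 2 to 10 in ND-75 RNAi, 1 to 5 in UQCR-14 RNAi, 1 to 2 in COX5B RNAi, 2 to 5 in ATPsynCf6 RNAi and 2 to 5 for the mean. The 10 calls came without ND-75 RNAi 1, where 10.2% of all probe sets were called and ND-75 RNAi was left with array 2, of the actin ratio of 37.4. The highest counts in the other RNAi groups came without ND-75 RNAi 1 or 2, with 9.23% and 9.22% of all called in UQCR-14 RNAi and 5.15% and 5.13% in ATPsynCf6 RNAi, and in COX5B RNAi also without control 2. GstD2 was thus the member called in all 4 groups in both alternative fits.

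**Figure D4:**
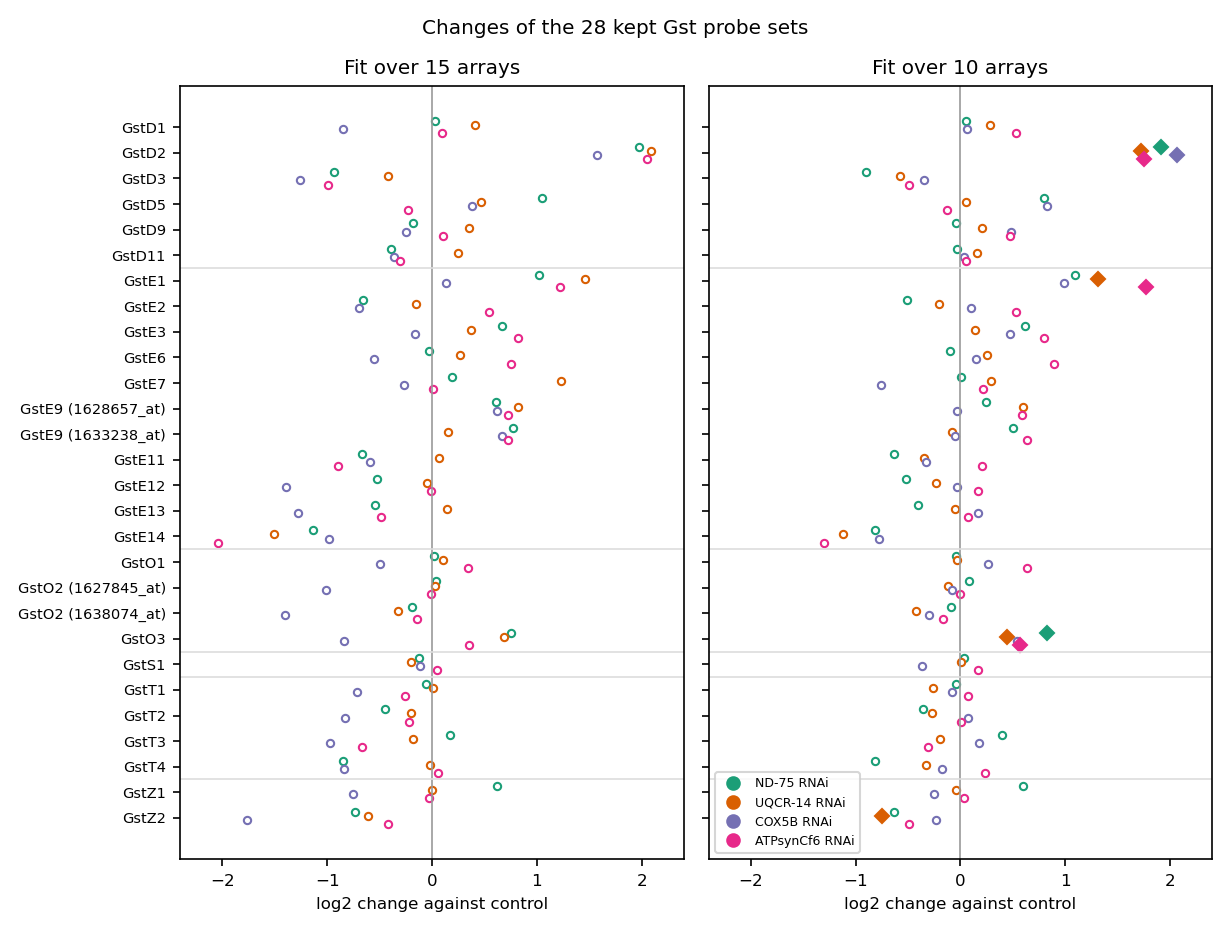
Log2 change against control of the 28 Gst probe sets that passed the filter, over all 15 arrays (left) and over the 10 arrays (right), by RNAi group. Filled diamonds passed the test at an adjusted p under 0.05 and open circles did not. No point passes on the left, while on the right GstD2 passes in all 4 groups and GstE1, GstO3 and GstZ2 pass in some.

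The knockdowns were also compared with each other. Over 15 arrays the F test called 0 of 28 members against 0.106% of all probe sets. At an unadjusted p under 0.05 it had 1 member, 3.57% of the 28, against 2.78% of all. With array weights it called GstE2 (adjusted p = 0.017), where 2.72% of all were called, and over the 10 arrays GstE2 (0.0232) and GstT3 (0.0298), where 4.4% of all were called. Of the 6 pairs of RNAi groups, ND-75 RNAi minus ATPsynCf6 RNAi was the pair with called members. It had 0 over 15 arrays (0.0484% of all probe sets), with 1 at an unadjusted p under 0.05, 3.57% of the 28 against 1.78% of all. With weights it had 2 (3.05% of all) and over the 10 arrays 3 (4.52% of all), the GstE2, GstT3 and GstE12 values given above.

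Without any fit, members were counted whose 3 RNAi arrays all lay on one side of the 3 control arrays. In ND-75 RNAi 7 of 28 were higher (3.54% of all probe sets) and 3 lower (4.13%). The 7 stand for 6 genes, since GstE9 counts with both probe sets, and 5 of the 7 were above the array median on a control array. GstD5 and the dimmer GstE9 probe set had passed the filter through RNAi arrays alone. In UQCR-14 RNAi 2 were higher (3.37%), again with that GstE9 probe set, and 2 lower (3.8%), in COX5B RNAi 0 were higher (2.99%) and 4 lower (4.41%), and in ATPsynCf6 RNAi 6 were higher (8.95%) and 3 lower (6.26%). GstD2 was higher in 3 groups and GstZ2 lower in 4, and no other member was on the same side in more than 2. Members also followed the arrays that stood apart. COX5B RNAi 1 was the lowest of 15 arrays for 21 of 28 members, and for 49.1% of all tested probe sets. UQCR-14 RNAi 3 was the highest of its group for 26 of 28 members, and control 3 for 19, against 38.2% and 38.5% of all. The part of array quality in these values was not tested.

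Genes that supply glutathione or control the family were described from lists. Of glutathione synthesis and recycling 8 genes were tested, among them Gclc and Gclm, the subunits of the enzyme that limits glutathione synthesis. The list held 26 names, of which 9 matched a probe set. In the 15-array, weighted and 10-array fits 0 of 8 passed against control in any group. Of all probe sets 0% to 0.0677% were called over 15 arrays and 0.203% to 6.91% with array weights. Over the 10 arrays 1.69% to 4.59% were called outside COX5B RNAi. With so few genes, 0 calls cannot be told from these shares. Of 15 names of other proteins with a glutathione transferase domain or glutathione-dependent transferase activity, 8 matched a probe set and 7 were tested. Of these 0 of 7 passed in the same fits, beside the same shares, among them Mgstl, a microsomal transferase.

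In the CncC pathway 0 of 3 genes passed over 15 arrays, beside 0% to 0.0677% of all probe sets, and cnc was the member that passed otherwise. Its signals were 1766, 2116 and 866 in control, 922, 1055 and 405 in ND-75 RNAi, 1120, 1083 and 293 in UQCR-14 RNAi, 2686, 1118 and 507 in COX5B RNAi, and 1390, 1114 and 1072 in ATPsynCf6 RNAi. All groups overlapped control through the arrays that stood apart. Over 15 arrays its change was -0.99, -1.04, -0.35 and -0.32 in the order ND-75, UQCR-14, COX5B and ATPsynCf6 RNAi (SE 0.66). With weights cnc fell by 1.01 in ND-75 RNAi (limma adjusted p = 0.0193), by 0.79 in UQCR-14 RNAi (0.0468) and by 0.66 in ATPsynCf6 RNAi (0.019). In the 10-array fit cnc fell by 0.96 (0.0055), 0.80 (0.0117) and 0.70 (0.0151), and stood at -0.78 (0.0561) in COX5B RNAi. The probe set was not assigned to an isoform here.

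Of 26 names for conjugate export and other detoxification, 20 matched a probe set and 10 were bright enough to be tested. Over 15 arrays 1 of the 10 passed in ND-75 RNAi (0.0677% of all probe sets) and 1 in UQCR-14 RNAi (0.0484% of all). Both are cytochrome P450 genes that were above the array median on no control array. They entered the test through the arrays where they were high, which were the 3 UQCR-14 RNAi arrays for Cyp4p2 and the 3 ND-75 RNAi arrays and ATPsynCf6 RNAi 1 for Cyp6a17, so they had to differ. Cyp6a17 had 507, 445 and 509 in ND-75 RNAi against 0.71, 4.10 and 2.92 in control, a change of 4.76 (SE 0.51, limma adjusted p = 0.000686). Cyp4p2 had 542, 583 and 473 in UQCR-14 RNAi against 9.52, 5.23 and 21.4, a change of 4.33 (SE 0.40, 0.000174). Cyp9b2, another P450, was above the median on 9 RNAi arrays and 0 control arrays. It too entered the test through arrays where it was high, so its p-values are not given. With weights its change was 1.05 in UQCR-14 RNAi and 1.23 in ATPsynCf6 RNAi. Over the 10 arrays its change in ATPsynCf6 RNAi was 1.24. Mdr49, an export pump, fell with weights in ATPsynCf6 RNAi by 0.71 (0.0114).

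Glutathione transferases are also made in fat body, which can stay attached to a dissected nervous system. The summed signal of the 5 matched fat body markers, 4 of which exceeded the median on all 15 arrays, was 5840 to 7366 in control and 8610 to 10091 in UQCR-14 RNAi, without overlap. Each single marker overlapped control in UQCR-14 RNAi, though on the 10 arrays only Lsd-1 did. There apolpp had 7879, 6958 and 2043 against 6587, 4937 and 2916 in control, and Lsp2 had 646, 561 and 2119 against 238, 323 and 1429. The sum was 6870 to 8123 in ND-75 RNAi, 5967 to 12212 in COX5B RNAi and 7190 to 12145 in ATPsynCf6 RNAi. Salivary gland markers, 5 of 6 above the median throughout, summed to 866 to 12680 in control, 953 to 7163 in ND-75 RNAi, 3509 to 17625 in UQCR-14 RNAi, 2304 to 10783 in COX5B RNAi and 974 to 1740 in ATPsynCf6 RNAi. On the 10 arrays alone these sums were 866 to 1836 in control and 3509 to 10578 in UQCR-14 RNAi, without overlap, 953 to 3833 in ND-75 RNAi, 2304 in COX5B RNAi and 974 to 1740 in ATPsynCf6 RNAi. GstD2 signals were 181 to 305 in ND-75 RNAi, 230 to 302 in UQCR-14 RNAi, 62.1 to 335 in COX5B RNAi and 218 to 304 in ATPsynCf6 RNAi. The part of other tissue in the Gst values was not tested.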

How the data were processed

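The authors' deposited table holds 1 signal intensity per probe set and array, on a linear scale. Per the submitters' processing notes, the tools were MAS5, the Transcriptome Analysis Console and Affymetrix Expression Console. The MAS5 scaling target and the genome build are not given in the sources used here, and the scaling was kept. Of 18952 probe sets 183 array controls were left out. Signals were analysed as log2(signal + 16). The 10340 probe sets above their array's median on at least 3 of 15 arrays were fitted with limma 3.58.1 in R 4.3.3 (lmFit with 5 group means, eBayes with trend). Tests were two-sided with Benjamini-Hochberg adjustment over all kept probe sets and a threshold of 0.05. The fits were checked on simulated arrays of equal spread, a check that does not cover arrays that stand apart. For 1 RNAi group against control, with 3 arrays each, exact two-sided permutation could not reach a p below 0.1. Permutation was not used. The number of arrays limits the precision.

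Gene names come from the array's annotation, which gave 13647 probe sets 1 symbol, 402 several and 4720 none. All 36 Gst symbols matched RefSeq. Named were GstD2, the members called in any of the 3 fits, the 2 brightest of each class and those on the same side of control in at least 3 RNAi groups. Members, lists and the 10 arrays were chosen with earlier results of these data known. Other settings tried were the pseudocount, the filter, centring, quantile normalization, the variance trend, the replicate number as a block and each array left out.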

Additional observations from a re-analysis of the deposited data

Results flagged for a closer look

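Differences between knockdowns stood out for 3 genes. GstE2 differed among the 4 RNAi groups by the moderated F test with array weights (limma adjusted p = 0.017) and over the 10 arrays (0.0232), and GstT3 did so over the 10 arrays (0.0298). ND-75 RNAi minus ATPsynCf6 RNAi was -0.98 and -1.04 for GstE2 and 0.69 and 0.72 for GstT3 with weights and over the 10 arrays, and -0.69 for GstE12 over the 10 arrays. Over all 15 arrays none of the 3 passed. All ND-75 RNAi arrays had GstE2 signals of 652 or less, narrowly below the lowest control value of 655, and all ATPsynCf6 RNAi arrays had 1105 or more, above control. GstZ1 had 232 or more in ND-75 RNAi, above control, and 156 or less in COX5B RNAi, below control, and was singled out by these signals. Its ND-75 RNAi minus COX5B RNAi difference was 1.38 over 15 arrays (SE 0.39, limma adjusted p = 0.532) and 0.79 with weights (SE 0.32), and neither passed. Quantile normalization with array weights called this difference, where 8.35% of all probe sets were called.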

How the results depend on the processing

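Over all 15 arrays 0 Gst probe sets were called in each contrast, and most of the settings that gave calls discount the arrays standing apart. Array weights called 2 in ND-75, 3 in UQCR-14, 1 in COX5B and 9 in ATPsynCf6 RNAi, 4 for the mean of the 4 groups and 1 in the F test. The 10 arrays called 2, 4, 1, 3, 3 and 2. Quantile normalization with array weights called 4, 6, 7, 8, 6 and 13, where 4.12%, 20.9%, 23.5%, 7.4%, 14.6% and 26.1% of all probe sets were called. Quantile normalization alone, which discounts no array, called 1 for the mean of the 4 groups (0.058% of all). GstD2 passed in the 4 RNAi groups in that order at 1.89, 1.83, 2.01 and 1.79 with weights, at 1.91, 1.72, 2.07 and 1.75 over the 10 arrays, and at 1.64, 1.51, 1.77 and 1.54 with quantile normalization and weights. With each array left out in turn from the 15, counts ran from 0 to 1 in ND-75, UQCR-14 and ATPsynCf6 RNAi and for the mean, and were 0 in COX5B RNAi and the F test. GstD2 ran from 1.68 to 2.21 in ND-75, 1.79 to 2.28 in UQCR-14, 1.17 to 2.25 in COX5B and 1.75 to 2.24 in ATPsynCf6 RNAi. The mean change of GstO3 over the 4 groups was 0.63 without COX5B RNAi 1 and turned to -0.01 without COX5B RNAi 3. Its signals on COX5B RNAi 1, 2 and 3 were 62.8, 1545 and 2744, and why array 1 was low was not tested.

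Same-numbered arrays deviated together in 18 pairs without ATPsynCf6 RNAi (correlations of 0.167 to 0.852) but not in the 12 pairs with it (-0.362 to 0.149), so the numbers were not taken to pair the samples. With the replicate block GstD2 stood at 1.98, 2.09, 1.57 and 2.05 and 0 members were called in every contrast. With the replicate block and array weights together, chosen after seeing the data, 2, 2, 1 and 5 members were called in the 4 groups and 3 for the mean, beside 1.71%, 4.5%, 0.174%, 5.54% and 3.57% of all probe sets. The weighted calls that ended there were GstE2 (limma adjusted p = 0.0577), GstO1 (0.117), GstO3 (0.0779) and GstZ2 (0.113) in ATPsynCf6 RNAi, GstZ2 in UQCR-14 RNAi (0.0685) and for the mean (0.0829), and GstT3 in ND-75 RNAi minus ATPsynCf6 RNAi (0.0715). GstD2 was called in all 4 there, with adjusted p of 1.08e-05 to 0.0273. Dim signals limit 8 Gst probe sets, whose highest signal was 78.1 beside array medians of 23.1 to 64.1.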
